A study of Mus musculus with 28 samples.

Results

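Camkmt is a protein-coding gene of 368 kb on mouse chromosome 17, from 85090561 to 85458589 (mm10), and it fills most of the interval between the Slc3a1-Prepl gene pair and the poised enhancer of Six3 (PE Six3). Its contacts were read by 4C-seq from 2 viewpoints, the Six2 promoter and PE Six3. The members are the restriction fragments with reads whose midpoint lies in the annotated span of the gene. They numbered 112 in the Six2 promoter wild type (WT) library, 161 in Six2 promoter del36, 291 in PE Six3 WT and 451 in PE Six3 del36. Together these are 735 different fragments, of 2984 within 1 Mb of a viewpoint in the 4 libraries and 99194 in all 13 libraries analysed. The rule uses the annotation alone and no measured value.

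All 4 libraries were made from E14Tg2a, a mouse embryonic stem cell (ESC) line; the labels call the cells 2i+LIF ESC, while the growth protocol names medium with serum and LIF. WT cells are labelled wild type. In del36 cells the domain boundary that separates Six3 from Six2 was deleted (the sources used here do not say from how many clones). There was 1 library for each viewpoint and genotype, so no difference below has a replicate check, and no test between genotypes was made.

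In 4C-seq, chromatin is crosslinked, cut and religated, and every fragment joined to a chosen viewpoint fragment is amplified and sequenced. Read counts fall with distance from the viewpoint, and domain boundaries hold contacts largely on their own side. Camkmt encodes calmodulin-lysine N-methyltransferase, an enzyme that methylates a lysine of the calcium sensor calmodulin. In humans, deletions of SLC3A1 and PREPL cause hypotonia-cystinuria, and larger deletions at the same locus also remove CAMKMT. A poised enhancer such as PE Six3 carries active and repressive chromatin features together in stem cells and drives its target gene only after differentiation.

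Camkmt is on the plus strand, so its start is the end farthest from both viewpoints and its end is the nearest. The start lies back to back with Prepl, a gene of a prolyl endopeptidase-like protein on the opposite strand. Only 56 bp lie between the annotated spans (chr17:85090505-85090560). This stretch is shown because it holds the edge from which all steps below are counted, and capitals mark its 3 CpG dinucleotides (RefSeq, GRCm38.p6, plus strand, written 5′ to 3′).
Camkmt-Prepl intergenic stretch: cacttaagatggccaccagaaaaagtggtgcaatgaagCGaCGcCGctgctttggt
The 300-bp promoter window around it, from 85090376 to 85090675, had 16 CpGs and a GC content of 55.0%, against medians of 7 CpGs and 52.7% over 32851 promoter windows of that length. It held neither CATG, the site of NlaIII, nor GATC, the site of DpnII; 21.1% of promoter windows lacked both. Both motifs are their own reverse complement, so this holds for either strand.

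Recovered reads ran from 2238911 to 7730539 per library. Every share below takes local reads as the total: those up to 1 Mb from the viewpoint, without the nearest 10 kb on each side. Local reads were 165248 on 736 fragments in Six2 promoter WT, 238250 on 897 in Six2 promoter del36, 1218764 on 1076 in PE Six3 WT and 355383 on 1602 in PE Six3 del36. The PE Six3 libraries thus differed in how many reads fell on a local fragment, 1133 on average in WT and 222 in del36. Intervals are 95% Wilson intervals for shares and exact conditional intervals for log2 ratios. They cover counting error only, because PCR copies, here without molecular identifiers, are not independent molecules.

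Camkmt held a larger share of local reads in del36 than in WT from the Six2 promoter, and a slightly smaller one from PE Six3. Seen from Six2, the gene had 18804 WT reads, 11.4% of local reads (11.2% to 11.5%), and 38101 del36 reads, 16.0% (15.8% to 16.1%). The log2 ratio of del36 over WT was 0.49 (0.47 to 0.52), or 1.41 times as much. From PE Six3 it had 362791 WT reads, 29.8% (29.7% to 29.8%), and 97069 del36 reads, 27.3% (27.2% to 27.5%). Here the log2 ratio was -0.12 (-0.13 to -0.11). For scale, the gene covers 18.6% of the measured range. It stood above this from PE Six3, which lies 26.8 kb from its end, and below it from the Six2 promoter, which lies 231 kb from its end.

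The sign from PE Six3 depended on the measure, while that from the Six2 promoter did not under the alternatives tried. With only the reads on the Camkmt side of the viewpoint as the total, the log2 ratio from PE Six3 was 0.14, and counting covered length in place of reads it was 0.083. The corresponding Six2 promoter values were 0.29 and 0.44. No part of the route from PE Six3 to Camkmt is deleted in del36. The deleted stretch, taken as the longest one without reads in PE Six3 del36 (37.2 kb from 85629635 to 85666796), lies between the Six2 promoter and the gene, so Camkmt is nearer by that length in del36. Whether the shorter distance set the higher share was not tested.

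Libraries of unrelated viewpoints gave the level over the gene for viewpoints on other chromosomes. They had 1183 to 24241 reads on all of chromosome 17, and do not give the level of other spans near a viewpoint on it. Of 9 libraries with viewpoints near Gata6 or Gria1, on other chromosomes, 7 had no read on any Camkmt fragment. The highest had 14 reads, 5.54 RPM, the deposited unit, which scales reads to the library's total. In the 4 libraries described here the same span held 3048 RPM in Six2 promoter WT, 6290 in Six2 promoter del36, 46926 in PE Six3 WT and 43322 in PE Six3 del36. On this deposited scale the Six2 promoter value was higher in del36 too, and the PE Six3 values again lay close together. The library's total includes the viewpoint fragment, which took 66.3% of reads in PE Six3 WT and 35.2% in PE Six3 del36. The PE Six3 totals thus differ in make-up. In the Six2 promoter libraries that fragment took 83.9% and 83.6%.

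Camkmt was compared with its mirror image across each viewpoint, the span equally far away in the other direction in WT. The same coordinates were used in del36, where the deletion brings Camkmt up to 37.2 kb nearer the Six2 promoter. The distances are thus matched in WT only. The Six2 promoter mirror held 23.0% of WT local reads (22.8% to 23.2%); the del36 value was 18.3% (18.1% to 18.4%). Camkmt thus had 0.494 times the reads of its mirror in WT and 0.876 times in del36. From PE Six3, the mirrored span crosses Six3, Six2 and the deleted stretch. Its WT share was 30.1% (30.0% to 30.2%) and its del36 share 34.5% (34.3% to 34.6%). Camkmt had 0.990 times as many reads as this span in WT and 0.793 times in del36. The log2 change of this side-to-side ratio was 0.83 for the Six2 promoter and -0.32 for PE Six3: relative to the opposite side, the gene was higher in del36 from the first viewpoint and lower from the second. In del36 the PE Six3 mirror is short of the deleted stretch, and the part of it beyond that stretch is nearer PE Six3 than in WT.

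**Figure D1:**
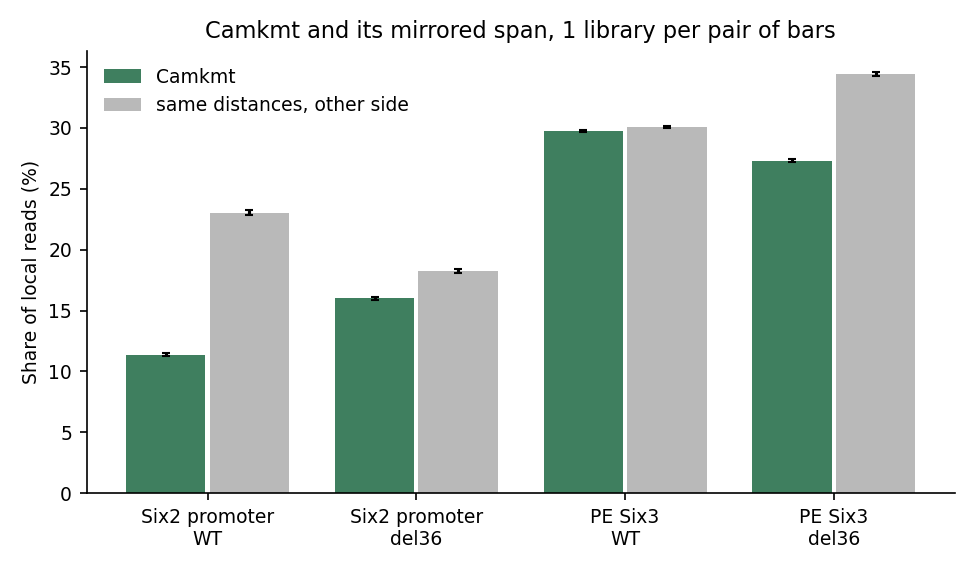
Share of local reads (%) over Camkmt (green) and over its mirror image across the viewpoint (grey), 1 library per pair of bars, with 95% Wilson intervals for counting error. The mirror keeps its WT coordinates in del36, so distances are matched in WT only. From the Six2 promoter Camkmt is at 11.4% in WT and 16.0% in del36 while its mirror is at 23.0% and 18.3%; from PE Six3 Camkmt is at 29.8% and 27.3%.

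Counted in reads, the higher share from the Six2 promoter lay in the part of the gene nearer the viewpoints. That 184-kb part, which holds the gene's end, had 6.23% of local reads in WT and 11.1% in del36, a log2 ratio of 0.83 (0.80 to 0.86). The equally long part that holds the start had 5.15% in WT and 4.91% in del36, a log2 ratio of -0.07 (-0.11 to -0.03). From PE Six3 the parts went the other way. The nearer part had 20.0% in WT and 16.7% in del36, at -0.26 (-0.27 to -0.24), and the farther part 9.75% and 10.6%, at 0.12 (0.10 to 0.13). Single steps carried some of these signs. Without the step at 240 to 260 kb the nearer part from PE Six3 held 14.5% in WT and 15.7% in del36, at 0.12, while leaving out any other of its 10 steps kept it below 0. The farther part turned sign without 2 of its 10 steps from PE Six3 and without 4 of 10 from the Six2 promoter, and the nearer part from the Six2 promoter stayed between 0.68 and 1.14. As a share of the gene's own reads, the nearer part made up 54.7% for Six2 promoter WT, 69.3% for Six2 promoter del36, 67.3% for PE Six3 WT and 61.3% for PE Six3 del36. By covered length the Six2 promoter values were 65.2% and 61.9%, so the order of these libraries depended on counting reads. The gene's share by covered length was 12.9% in WT and 17.6% in del36, and both parts were then higher in del36. The placing of the higher share in the nearer part thus also depended on counting reads.

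In 20-kb steps from the start, the 19 steps of the gene (the last, at 360 to 368 kb, is shorter) differed widely within each library. In Six2 promoter WT they ran from 0.0012% to 1.73% of local reads, with a median of 0.553%. In Six2 promoter del36 they ran from 0.112% to 1.83%, with a median of 0.890%. From PE Six3 they ran from 0.209% to 5.57% in WT (median 1.3%) and from 0.294% to 2.99% in del36 (median 1.28%). The step at 240 to 260 kb was the highest in PE Six3 WT and in Six2 promoter del36, the step at 260 to 280 kb in Six2 promoter WT, and the step at 280 to 300 kb in PE Six3 del36. All 4 maxima thus lay between 240 and 300 kb from the start, in the part nearer the viewpoints. The second-highest step of each library lay outside this stretch. It was at 60 to 80 kb in Six2 promoter WT (1.60%) and at 340 to 360 kb in PE Six3 del36 (2.84%). In Six2 promoter del36 (1.69%) and PE Six3 WT (2.88%) it was at 300 to 320 kb. The step share followed distance weakly: Spearman's rho over the 19 steps was 0.07 in Six2 promoter WT, -0.32 in Six2 promoter del36, -0.41 in PE Six3 WT and -0.16 in PE Six3 del36, where a fall with distance gives a negative value. Steps of a library share its depth and its viewpoint, and rho is given as a description.

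**Figure D2:**
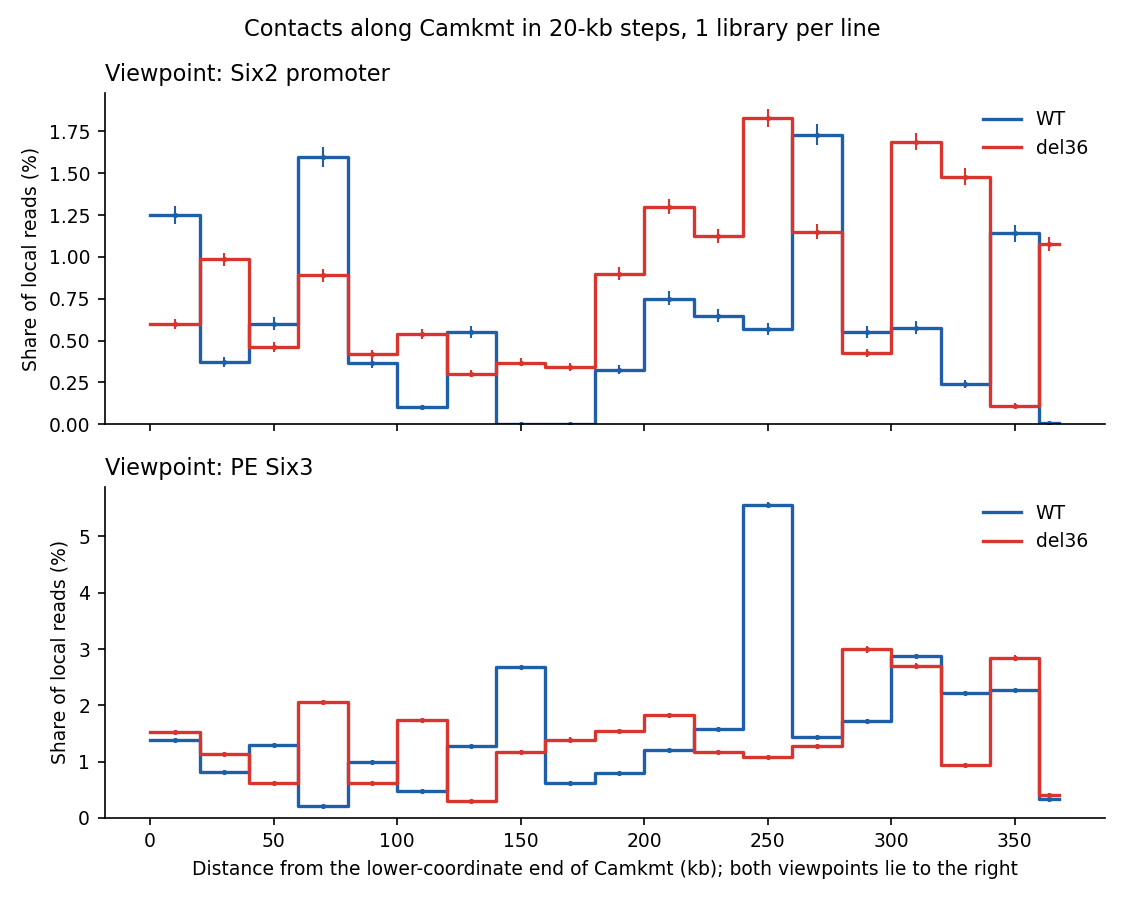
Share of local reads (%) in each 20-kb step along Camkmt against distance from its lower-coordinate end (kb), which is the start, for WT (blue) and del36 (red), 1 library per line, with 95% Wilson intervals. The 140 to 180 kb stretch is almost empty only in the upper WT line, and the 240 to 260 kb step of PE Six3 WT reaches 5.57%.

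The largest ratios from the Six2 promoter came from steps that were almost unread in WT. The step at 140 to 160 kb had 2 reads in WT and 879 in del36, a log2 ratio of 8.25 (6.39 to 11.30). The step at 160 to 180 kb had 4 and 810 reads, at 7.13 (5.77 to 9.01). The last step, at 360 to 368 kb, had 10 and 2567 reads, at 7.48 (6.59 to 8.54). These 3 steps made up 1.78 of the 4.61 percentage points by which the gene was higher in del36. The first pair lies side by side, so 40 kb of gene body in its middle had 6 reads on 4 fragments in WT. PE Six3 WT had 32565 and 7441 reads in the same steps, so fragments of this stretch were read from the nearer viewpoint. All 4 fragments behind the 6 Six2 promoter WT reads had more reads in Six2 promoter del36. In the last step, 1 fragment without reads in Six2 promoter del36 held 70% of the WT reads. The other WT fragments there were taller in del36. Whether so few WT reads stand for contacts was not tested, so the sizes of these 3 ratios are not read further. Their intervals cover counting error only.

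The other 6 steps past 2-fold higher in del36 had 167 to 953 WT reads, on 2 to 8 fragments each. The largest of these ratios was 2.61 at 320 to 340 kb (0.242% in WT, 1.48% in del36), followed by 2.42 at 100 to 120 kb (0.101%, 0.541%). The remaining ratios stood at 240 to 260 kb (1.68), 300 to 320 kb (1.55), 180 to 200 kb (1.46) and 20 to 40 kb (1.41). In WT the tallest fragment held between 44.8% and 99.7% of the reads of each of these steps. The lowest ratio of the gene was at 340 to 360 kb, with 1.14% in WT and 0.112% in del36, at -3.35 (-3.54 to -3.16). The first step, with the start, came next at 1.25% and 0.599% (-1.06, -1.16 to -0.96), and then the step at 120 to 140 kb at -0.87 (-1.01 to -0.73). The 6 steps from 140 to 260 kb were all higher in del36, and elsewhere higher and lower steps were mixed. Over the gene the higher steps summed to 8.09 percentage points and the lower ones to -3.48.

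From PE Six3, the step at 60 to 80 kb had the largest ratio, with 0.209% in WT and 2.05% in del36, at 3.29 (3.23 to 3.36). The steps at 100 to 120 kb and 160 to 180 kb followed at 1.85 (1.80 to 1.90) and 1.19 (1.13 to 1.24). The lowest was the step at 240 to 260 kb, with 5.57% in WT on 28 fragments and 1.09% in del36 on 26, at -2.36 (-2.40 to -2.31). The steps at 120 to 140 kb and 320 to 340 kb came next at -2.12 (-2.21 to -2.03) and -1.25 (-1.3 to -1.2). The step at 240 to 260 kb alone differed by -4.48 percentage points, against -2.45 for the whole gene. The steps at the ends differed by less than 2-fold, with 1.39% and 1.52% in the first and 0.335% and 0.411% in the last. Without the step at 240 to 260 kb the gene's log2 ratio from PE Six3 was 0.12, and leaving out any other step kept it below 0. The Six2 promoter ratio stayed between 0.38 and 0.63 whichever step was left out.

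**Figure D3:**
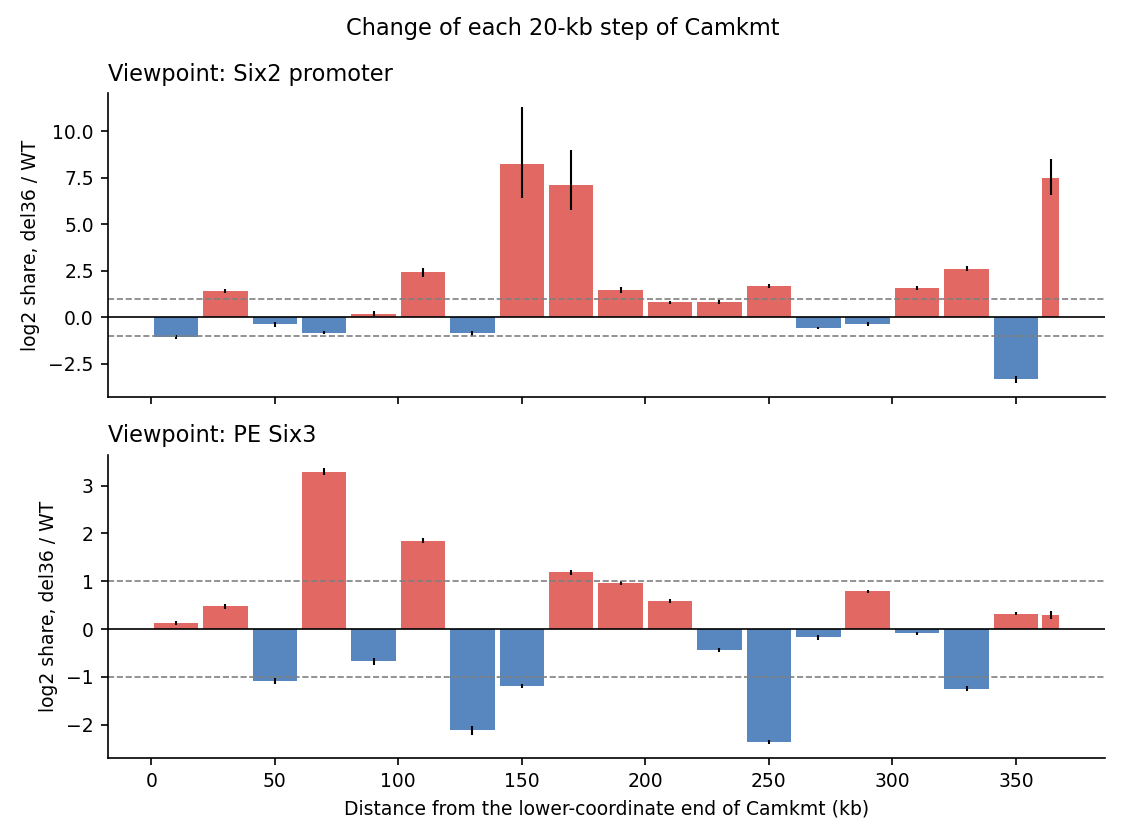
Log2 ratio of the share of local reads, del36 over WT, for each 20-kb step of Camkmt against distance from its lower-coordinate end (kb), with exact conditional 95% intervals for counting error; dashed lines mark a 2-fold change. From the Six2 promoter the 3 tallest bars, from 7.13 to 8.25, rest on 2 to 10 WT reads; from PE Six3 the bars run from -2.36 to 3.29.

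A 2-fold difference of a step was common in the whole range, so the step counts of Camkmt were read against it. For the Six2 promoter, 9 of 19 Camkmt steps (47.4%) were at least 2-fold higher in del36, against 34.4% of all 93 steps in the range, and 2 (10.5%) were at least 2-fold lower, against 20.4%. Outside the gene the shares were 31.1% and 23.0%. From PE Six3, 3 of 19 steps (15.8%) were higher, against 32.6% of 95, and 5 (26.3%) were lower, against 21.1%. Outside the gene these shares were 36.8% and 19.7%. The median log2 ratio of the Camkmt steps was 0.80 for the Six2 promoter, beside 0.40 over all steps, and 0.13 from PE Six3, beside 0.13. In either direction 54.8% of all Six2 promoter steps passed 2-fold, as did 53.7% of PE Six3 steps (54.1% and 56.6% outside the gene). Differences of this size are thus ordinary between these libraries, and with 1 library each nothing particular to Camkmt is read from its counts.

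The step profiles of WT and del36 were also little alike within a viewpoint. Across the 19 steps, Pearson's r between WT and del36 was 0.07 for the Six2 promoter and 0.12 for PE Six3. Between viewpoints it was 0.0026 in WT and -0.02 in del36. Spearman's rho for these 4 pairs ran from -0.03 to 0.22. Between the viewpoints, 6 steps were higher in del36 from both, 3 were lower from both, and 10 went opposite ways.

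Reads within the gene were concentrated on few fragments. The 10 tallest fragments held 42.1% of the gene's reads in Six2 promoter WT, 26.2% in Six2 promoter del36, 22.9% in PE Six3 WT and 18.1% in PE Six3 del36. In Six2 promoter WT, 53 of the 112 fragments had under 10 reads, and together these held 0.569% of the gene's reads. WT and del36 shared 55 Camkmt fragments from the Six2 promoter, 49.1% of those in WT and 34.2% of those in del36. From PE Six3 they shared 124, 42.6% and 27.5%. Over the whole local range the shared parts were 49.9% and 40.9%, and 45.8% and 30.8%. A fragment counted as shared from 1 read in each library. On the shared Camkmt fragments, Spearman's rho between WT and del36 reads was -0.50 for the Six2 promoter and -0.005 for PE Six3. The Six2 promoter value rests largely on fragments with few reads in one library. Sharing a fragment thus did not mean a like height in both libraries. Of the 735 fragments, 500 had reads in a single library and 4 in all libraries.

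The tallest fragments differed between libraries. In Six2 promoter WT they were 85158902 to 85159529 with 996 reads, 85306374 to 85306798 with 992 and 85100010 to 85100125 with 928. In Six2 promoter del36 those fragments had 34, 103 and 0 reads, and the tallest were 85427730 to 85427983 with 1501, 85155952 to 85155993 with 1244 and 85291471 to 85291544 with 1018. The WT library had 0, 3 and 1 reads on these. In PE Six3 WT the tallest were 85349170 to 85349272 with 10212 reads, 85345728 to 85345792 with 9327 and 85400091 to 85400694 with 8863, and PE Six3 del36 had 218, 0 and 935 there. In PE Six3 del36 the tallest were 85162620 to 85162863 with 2894, 85158678 to 85158897 with 2447 and 85387654 to 85387756 with 2002, against 421, 0 and 0 in WT. Each library had its own tallest fragments, and no fragment was among the 3 tallest of more than 1 library.

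**Figure D4:**
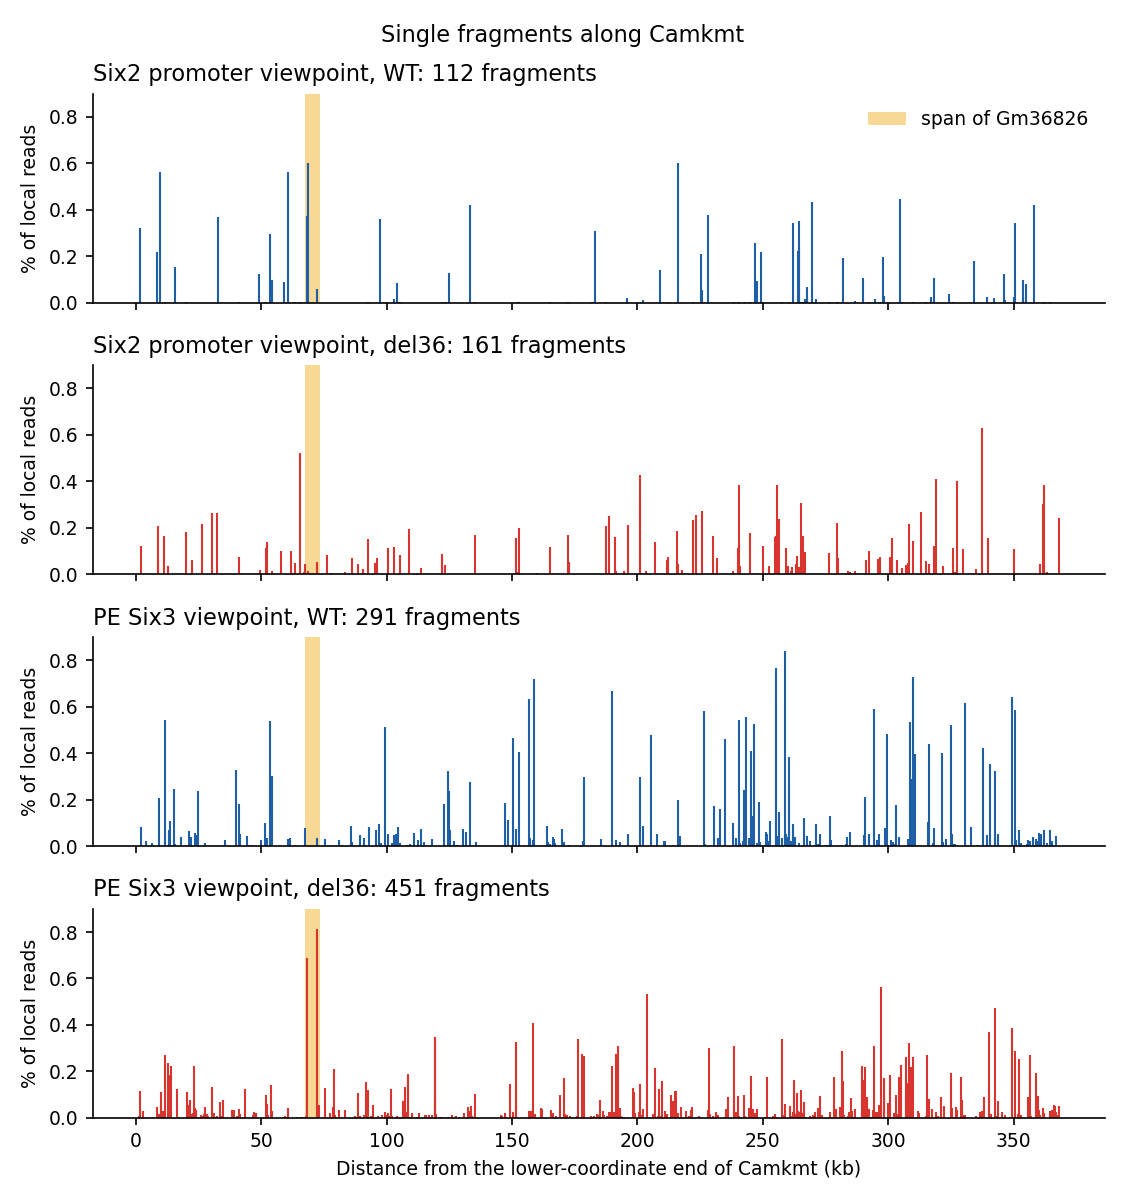
Each fragment of Camkmt with reads, as a share of local reads (%), against distance from the lower-coordinate end of the gene (kb), 1 library per panel; the yellow band is the span of Gm36826. Between 112 and 451 fragments are drawn, and the tallest reach 0.603% in Six2 promoter WT, 0.630% in Six2 promoter del36, 0.838% in PE Six3 WT and 0.814% in PE Six3 del36.

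A short stretch inside Camkmt, singled out after its values were seen, held tall fragments from both viewpoints. It is the span of Gm36826, an annotated long non-coding RNA gene of 5.91 kb from 85158056 to 85163961, 67.5 kb past the start of Camkmt. It takes up 1.60% of the length of Camkmt. In Six2 promoter WT it held 1706 reads, 1.03% of local reads (0.985% to 1.1%) and 9.07% of those of Camkmt, and in del36 163 reads, 0.0684% (0.0587% to 0.0798%). From PE Six3 the order was reversed, with 421 WT reads, 0.0345% (0.0314% to 0.038%), against 5584 del36 reads, 1.57% (1.53% to 1.61%). The stretch thus stood high in one library of each viewpoint, WT from the Six2 promoter and del36 from PE Six3, on 3 and 6 fragments.

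The ends of the gene were measured over 5 kb on each side. At the start, the window, which also covers the start of Prepl, had 0.321% of local reads in Six2 promoter WT (531 reads, all on 1 fragment) and 0.149% in del36, a log2 ratio of -1.11 (-1.31 to -0.91). From PE Six3 it held 0.110% in WT and 0.177% in del36, at 0.69 (0.55 to 0.82). The fragment that holds the start itself, 2486 bp from 85089063 to 85091548 had 62 reads in Six2 promoter del36, 61 in PE Six3 WT and 70 in PE Six3 del36. The median Camkmt fragment had 142, 354 and 74 reads in these libraries, so the start fragment was below the median in the first pair and near it in the last. It had 0 in Six2 promoter WT. If reads were independent, this would allow a share of up to 0.0018%. PCR copies are not independent, so that bound may be too low. The midpoint of the start fragment lies just outside the gene, so this fragment counts with Prepl.

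At the end of the gene the window went the other way. It held 0.26% in Six2 promoter WT (437 reads on 4 fragments) and 0.672% in del36 (1600 on 9), a log2 ratio of 1.34 (1.19 to 1.5). From PE Six3, 26.8 kb away, it held 0.829% in WT and 0.523% in del36, at -0.66 (-0.74 to -0.59). In WT, 1 fragment past the gene's end held 80.3% of the window's Six2 promoter reads, and 1 such fragment held 56.0% of its PE Six3 reads. The gene's own last step, at 360 to 368 kb, was at 7.48 from the Six2 promoter and at 0.29 from PE Six3. The lower PE Six3 value of the window is thus not one of the gene's last step. The 16.8 kb between the gene and the part left out around PE Six3 held 7.15% and 4.67% of PE Six3 reads, beside 1.38% and 1.80% of Six2 promoter reads. Per 100 kb that is 42.5% and 27.8% from PE Six3, above the 9.78% and 10.4% in the last 100 kb of Camkmt. Toward the start, the first 100 kb of Camkmt held 4.71% and 5.94% for PE Six3, against 4.19% and 3.35% for the Six2 promoter. The 100 kb before the gene, over Prepl, Slc3a1 and part of Ppm1b, held 4.29% and 3.02% from PE Six3 and 0.829% and 1.91% from the Six2 promoter (WT, then del36 throughout).

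Among the protein-coding genes in range, Camkmt held the largest share from PE Six3 in both genotypes, and from the Six2 promoter it was second in WT and first in del36. Set against its length, the order was lower. Per 100 kb of span it was at 3.09% (3.05% to 3.13%) in Six2 promoter WT and 4.35% (4.31% to 4.39%) in del36, rank 4 of 10 in both. In WT its neighbour in the order, Abcg8, a sterol transporter gene, was at 3.01% (2.77% to 3.27%) on 543 reads, so these levels did not differ beyond counting error. Only 10.9 kb of Abcg8, with 3 fragments, lay in range here. In del36 the next gene up was Srbd1 at 6.11% and the next down Prepl at 3.41%. From PE Six3 Camkmt was at 8.09% (8.07% to 8.11%) in WT and 7.42% (7.38% to 7.46%) in del36 per 100 kb, rank 3 of 13 in both. Six2, a homeobox gene of kidney progenitors whose span runs into the deleted stretch, stood just above it at 8.40% and 8.46%, and Six3, a homeobox gene of the forebrain and eye, highest at 21.2% and 24.0%.

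The log2 ratio of Camkmt lay near the middle of these genes. It ranked 6 of 10 from the Six2 promoter at 0.49, where the median gene was at 0.55 and 7 genes were above 0. From PE Six3 it ranked 8 of 13 at -0.12, where the median was at 0.009 and 7 genes were above 0. Several genes beyond the start of Camkmt had larger ratios, in both directions. Prepl was at 1.89 for the Six2 promoter but -0.86 for PE Six3, Slc3a1, an amino acid transporter gene, at 1.67 and -0.55, and Lrpprc, a gene of mitochondrial mRNA handling, at 2.00 and -0.74. In Six2 promoter WT, Prepl had 424 reads on 6 fragments, Slc3a1 318 on 4 and Lrpprc 655 on 13, so these ratios rest on few fragments. Abcg8 was at -2.12 and -0.95, but only 10.9 kb of it, on 3 fragments, lay in range of the Six2 promoter. The whole gene, 24.0 kb, lay in range of PE Six3. In range of PE Six3 only, Plekhh2 was at 3.06, Abcg5 at 0.84 and Dync2li1 at 0.21, on 7, 8 and 7 WT fragments. Of the 9 genes in range of both viewpoints besides Camkmt, those with the nearest pair of log2 ratios were Six3 (0.70 and 0.18, a distance of 0.372), Ppm1b, a protein phosphatase gene (0.62 and -0.51, 0.402) and Prkce, a protein kinase C gene (0.23 and 0.47, 0.651). The distance is Euclidean on the log2 scale over 2 values from 4 libraries and is a description. Of Prkce, 317.6 kb of 490.1 kb lay in range of PE Six3.

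**Figure D5:**
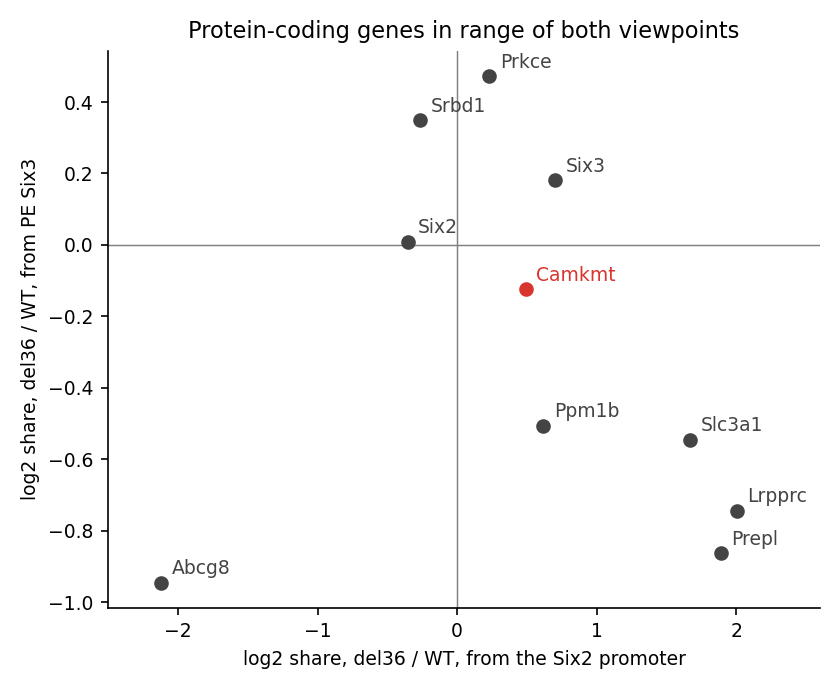
Log2 ratio of the share of local reads, del36 over WT, from PE Six3 against that from the Six2 promoter, 1 point per protein-coding gene in range of both viewpoints, with Camkmt in red at 0.49 and -0.12. Prepl, Slc3a1 and Lrpprc lie to the lower right and Abcg8 to the lower left. Abcg8 and Six2 from the Six2 promoter, and Prkce from PE Six3, are counted over part of their span.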

How the data were processed

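The files hold 1 library each. The authors deposited reads per restriction fragment as RPM, per the file headers. The submitters' processing notes name HISAT2 and mm10, and the sources used here give no version or filters. All RPM values were whole multiples of the smallest (100% of values within 0.1), so reads were recovered by division. A count test on them was not run, because there is 1 library per condition. The viewpoint was the tallest fragment, which matched its label. A fragment belongs to a span by its midpoint. The deleted stretch is the longest without reads in PE Six3 del36 between the viewpoints. Genes came from RefSeq for GRCm38.p6, the assembly of mm10; Camkmt matched by symbol, as did its promoter window. Background steps needed at least 20 reads in WT and del36 together, and a step with no read in a library would stand at 3 reads. The span, steps and lists were chosen with earlier results of these data known. The text names the highest and second-highest step of each library and the 3 most changed steps each way. It also names the 3 tallest fragments, both gene ends and the 3 genes most like Camkmt. Intervals were tried on simulated libraries with independent reads, which cannot show how they hold for PCR copies. Python 3.11.15, pandas 2.3.3 and scipy 1.17.1 were used.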

Additional observations from a re-analysis of the deposited data

Results flagged for a closer look

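Camkmt was higher in del36 than in WT from the Six2 promoter (log2 ratio 0.49) and lower from PE Six3 (-0.12). The signs are opposite in these libraries, 1 for each viewpoint and genotype, and the difference was not tested. The PE Six3 ratio turned positive, like that of the Six2 promoter, with the Camkmt side as total (0.14), by covered length (0.083) and without the step highest in WT (0.12).

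The library of the Gata6 promoter viewpoint with the PE Sox1 CGI inserted, made from anterior neural progenitor cells, had 14 reads on Camkmt, above the 3 reads that a count of 0 allows. All lay on the fragment from 85142507 to 85143290, and the TFBS+CGI library of that viewpoint had 1 read on the same fragment. The bound of 3 reads takes reads as independent. Without molecular identifiers, reads on 1 fragment cannot be told from PCR copies of 1 molecule.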

How the results depend on the processing

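Of 82 values recomputed under alternatives, those with other step widths aside, 29 stayed within counting error or, for counts, within 1.5 times, 49 moved further and 4 changed sign; all were planned except the minimum of 10 reads per fragment and the omission of the step highest in WT, chosen after seeing the data. Values are in the order Six2 promoter WT, Six2 promoter del36, PE Six3 WT, PE Six3 del36. The Camkmt share was 8.15%, 12.2%, 22.8% and 20.2% of the whole chromosome, 12.3%, 17.2%, 33.4% and 29.6% with 25 kb left out, 12.9%, 17.6%, 25.6% and 27.1% by covered length, and 10.8%, 15.5%, 29.2% and 26.7% without the tallest Camkmt fragment. Capping fragments at the 99th percentile gave 11.7%, 16.8% and 30.1% in the first 3. The log2 ratio from the Six2 promoter was 1.05 on the deposited scale, 0.59 over the chromosome, 0.37 without the deleted stretch in the total, 0.29 with the Camkmt side as total, 0.52 capped, 0.44 by covered length, 0.63 on fragments in both libraries and 0.62 without the step highest in WT. From PE Six3 it was -0.17 over the chromosome, -0.17 with 25 kb left out, -0.18 without the deleted stretch, -0.14 capped, -0.22 on shared fragments and -0.14 with 5 kb added on each side. It changed sign with the Camkmt side as total (0.14), by covered length (0.083) and without the step highest in WT (0.12). Without that step the nearer part of the gene was at 1.14 from the Six2 promoter and changed sign from PE Six3 (0.12). Steps past 2-fold higher and lower from the Six2 promoter were 17 and 7 of 36 with 10-kb steps (47.2% and 19.4%, beside 47.4% and 10.5% with 20 kb), 3 and 0 of 10 with 40-kb steps and 4 and 1 of 19 by covered length; on the deposited scale 1 was lower. From PE Six3, 7 of 37 were higher and 7 lower with 10-kb steps (18.9% each, beside 15.8% and 26.3%), 1 higher and 2 lower with 40-kb steps, 3 lower with steps shifted by 10 kb and 0 lower by covered length. The nearer part of the gene held 65.2%, 61.9%, 62.7% and 56.0% by covered length and 57.8%, 68.1%, 66.3% and 63.2% without the tallest fragment; capped, PE Six3 gave 67.0% and 62.3%. The cause of these shifts was not tested. Most of the Camkmt fragments in both Six2 promoter libraries had 1 to 3 reads in one of them. No paired analysis was possible because there is 1 library per condition. Of the Camkmt fragments of Six2 promoter WT, 47.3% had under 10 reads, against 12.0% in PE Six3 del36 at a like number of reads per local fragment (225 and 222).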
